A study of Mus musculus with 9 samples.

Results

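The mouse genes named Zfp followed by a number encode zinc finger proteins, and AGO-bound reads over these genes were examined in liver. They were taken as all protein-coding genes of the deposited region table with such a name, whatever their level or response: 230 of 13769 genes, holding 1036 of 92645 bound regions. The reads came from AGO CLIP-seq, in which ultraviolet light fixes AGO, the protein that carries microRNAs, to RNA before it is isolated with an antibody. Each of 9 libraries came from 1 mouse liver, taken at 6 weeks of age. The control group held 3 female and 2 male floxed littermates, with miR-122 status WT, and the knockout (KO) group 1 female and 3 males. The sources used here do not say what removed the floxed allele, in which cells, or the strain.

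Most Zfp proteins carry C2H2 fingers, short units folded around a zinc ion that bind DNA, often strung in tandem arrays encoded by a single exon. Many add a KRAB domain, which recruits the corepressor TRIM28 to silence retroelements and imprinted loci, and such genes stand in clusters that arose by tandem duplication. A smaller set with CCCH fingers, Zfp36 and its relatives, binds AU-rich elements in 3' UTRs and speeds mRNA decay. miR-122 is the most abundant microRNA of hepatocytes, and a microRNA pairs with its targets mainly through its seed, near its 5' end.

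The results below turn on matches for 3 microRNAs besides miR-122-5p. miR-23 had the largest excess of matches in Zfp coding sequence, let-7 matched the most Zfp regions in 3' UTRs, and miR-21 stood beside let-7 in its excess there. The mature sequences are RefSeq's (GRCm38.p6), with the seed, bases 2 to 8, in capitals.
mmu-miR-23a-3p: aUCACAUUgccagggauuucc
mmu-let-7a-5p: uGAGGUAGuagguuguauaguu
mmu-miR-21a-5p: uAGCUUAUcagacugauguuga
The run in a target that pairs with the whole seed is AAUGUGA for miR-23a-3p, CUACCUC for let-7a-5p and AUAAGCU for miR-21a-5p.

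Library totals ran from 445912 to 1170130 reads, and the region over Mir122a, the gene of miR-122, held 270 to 447 reads in controls and 3 to 52 in KO. The hepatocyte marker genes, 12 of 12 in the table, summed to 32654 to 40434 CPM (counts per 1000000 library reads) in controls. In KO they summed to 20358 to 28985 CPM, below every control, so all 9 libraries held reads of the labelled tissue. All 12 were tested, and 8 fell and 2 rose. Neuron markers also differed: 20 of 22 were in the table, 7 of them (Syn1, Rbfox1, Stmn2, Gria2, Grin1, Nefm and Celf4) without a read in any control, and their sum was 44.3 to 58.1 CPM in controls. In KO replicates 1 to 3 that sum was 2171, 2439 and 2835 CPM, and in KO replicate 4 it was 8995 CPM. Glia markers, 7 of 10 in the table, summed to 268 to 462 CPM in controls and 660 to 1771 CPM in KO. Stellate cell markers, 8 of 8 in the table, summed to 651 to 802 CPM in controls and 1094 to 1975 CPM in KO, and 4 of the 7 tested rose. Of 9 macrophage markers tested 5 rose, with sums that overlapped (352 to 461 CPM in controls and 457 to 898 CPM in KO). All 16 tested neuron markers and 3 of 4 tested glia markers rose, and no tested neuron, glia, stellate or macrophage marker fell. Across all genes tested, 21.9% rose and 23.3% fell. Whether these cell types or their genes bear on the values below was not tested. Values given without KO replicate 4 do not test it, since KO replicates 1 to 3 also had neuron marker sums above every control. In tissue, fewer cells of a type and fewer bound reads per cell cannot be told apart.

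Over the Zfp genes together, AGO-bound reads did not fall in KO; their makeup changed. Summed Zfp reads were 5763, 5826, 6107, 6693 and 5419 CPM in the controls and 6811, 7140, 7374 and 6470 CPM in KO, with overlap between control 4 and KO replicate 4. Regions with a miR-122-5p seed match held 21.7, 16.9, 23.3, 22.9 and 23.3% of these reads in the controls and 4.80, 4.00, 3.61 and 3.99% in KO. Every KO library lay far below every control. Across all protein-coding genes the same share was 20.7% ± 0.878 (SD, n = 5) in controls and 3.41% ± 0.368 (SD, n = 4) in KO. Outside miR-122-5p regions the summed Zfp reads were 4671 ± 374 CPM in controls and 6665 ± 396 CPM in KO, without overlap. The same sum over all protein-coding genes went from 631544 ± 16598 CPM to 714249 ± 21534 CPM, also without overlap. CPM are shares of a library, so a loss at some regions by itself raises the share of the others. The part of this in the rises outside miR-122-5p regions was not tested.

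**Figure D1:**
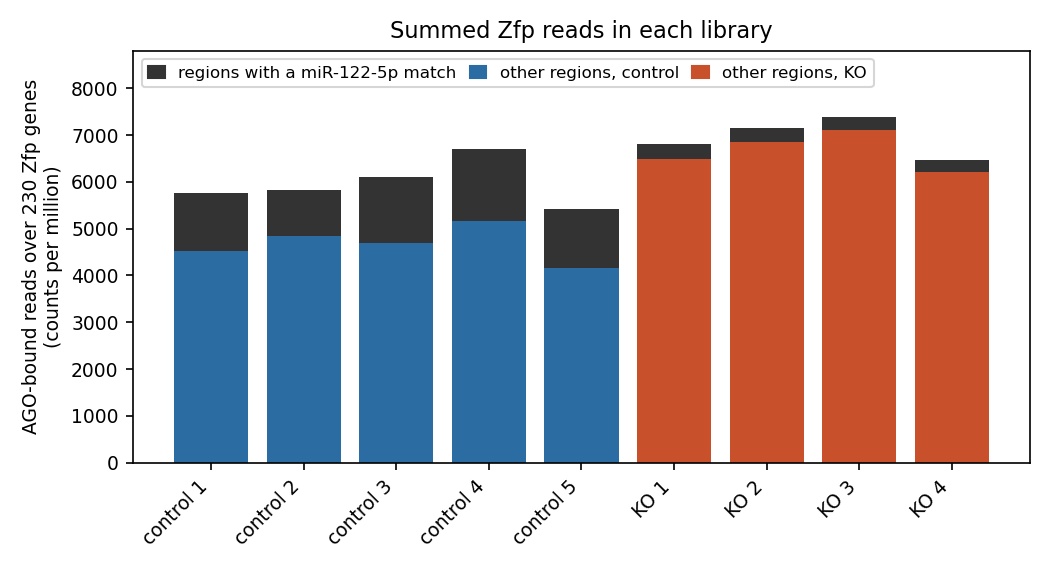
Bars give the AGO-bound reads summed over 230 Zfp genes in each of 9 libraries, in CPM on an axis that starts at 0, with the reads in regions holding a miR-122-5p match in dark grey on top. The dark part is 987 to 1533 CPM in the 5 controls and 258 to 327 CPM in the 4 KO libraries.

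Reads were spread unevenly over these genes. The median Zfp gene had 3 regions and 74 reads in all 9 libraries, 54 genes had a single region, and 61 had under 30 reads. The 10 genes with the most reads held 44.6% of all Zfp reads. Among these, Zfp185 (an LIM-domain protein gene despite its name) and Zfp791 owed their rank to regions that the file annotates as structural RNA repeats, which took 9.89 to 15.6% of Zfp reads in controls and 9.02 to 15.9% in KO. Zfp791 had 359 ± 69.9 CPM in controls and 465 ± 117 CPM in KO, and Zfp185 303 ± 29.6 and 373 ± 44.8 CPM, all overlapping.

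Zfp reads lay less in coding sequence and more in 3' UTRs than reads of other genes. In controls 46.9% ± 1.82 of Zfp reads were in 3' UTRs and 34.4% ± 2.13 in coding sequence (SD, n = 5), against 35.4% ± 1.72 and 48.0% ± 1.40 for all protein-coding genes. In KO the Zfp coding share was 27.9% ± 2.15 (SD, n = 4), below every control, and the 3' UTR share 52.4% ± 2.99. All protein-coding genes moved the same way, to 36.5% ± 4.00 in coding sequence and 47.4% ± 1.08 in 3' UTRs. The intronic share of Zfp reads was 1.84 to 2.84% in controls, 3.08 to 3.42% in KO replicates 1 to 3 and 8.18% in KO replicate 4.

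Single Zfp genes changed in both directions. Of the 230 genes, 108 had too few reads to be tested (74 at most over 9 libraries), and 18 of these had every KO library above every control and 7 every KO library below. Of the others, 22 fell and 23 rose in KO by edgeR's quasi-likelihood test at a Benjamini-Hochberg adjusted p under 0.05, 36.9% of those tested. Across all 8843 genes tested, 45.2% passed, with 23.3% lower and 21.9% higher. The groups did not overlap for 16 tested Zfp genes with KO below and 22 with KO above, against 18.3% and 20.3% of all genes tested. A gene read in 1 group alone enters the test only because the groups differ, so these shares are descriptions. The median log2 fold change was 0.13 for the tested Zfp genes and 0.07 for all genes. Scaling on genes without a miR-122-5p match moved the median of all genes to -0.24, and the Zfp genes then split into 29 lower and 14 higher. Without KO replicate 1, or without control 4, 14 fell and 15 rose, and without control 5 the number higher was 14.

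Genes with a miR-122-5p region supplied most of the falls. Of 88 such Zfp genes, 64 were tested, 16 of which fell and 8 rose, with a median log2 change of -0.23. The 58 tested Zfp genes without such a region gave 6 falls and 15 rises, with a median of 0.51. Of all 4159 tested genes with such a region, 1543 fell and 563 rose, with a median of -0.34. Of all 4684 tested genes without one, 513 fell and 1377 rose, with a median of 0.36. When miR-122-5p regions were left out, 102 Zfp genes could be tested, 9 were lower and 15 higher, with a median of 0.24, against 0.04 over all 8430 genes, of which 34.0% passed, 16.8% lower and 17.1% higher. Without control 5 the number higher was 7. Of the 22 genes lower with all regions, 8 were also lower without miR-122-5p regions, 5 no longer passed and 9 had too few reads left. Of those 8, Zfp41, Zfp672, Zfp691 and Zfp710 held a region of a further class that the deposited names mark miR-122-5p with the suffix -B, and Zfp39, Zfp259, Zfp750 and Zfp768 did not. Those 8 names were chosen after their values were seen.

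**Figure D2:**
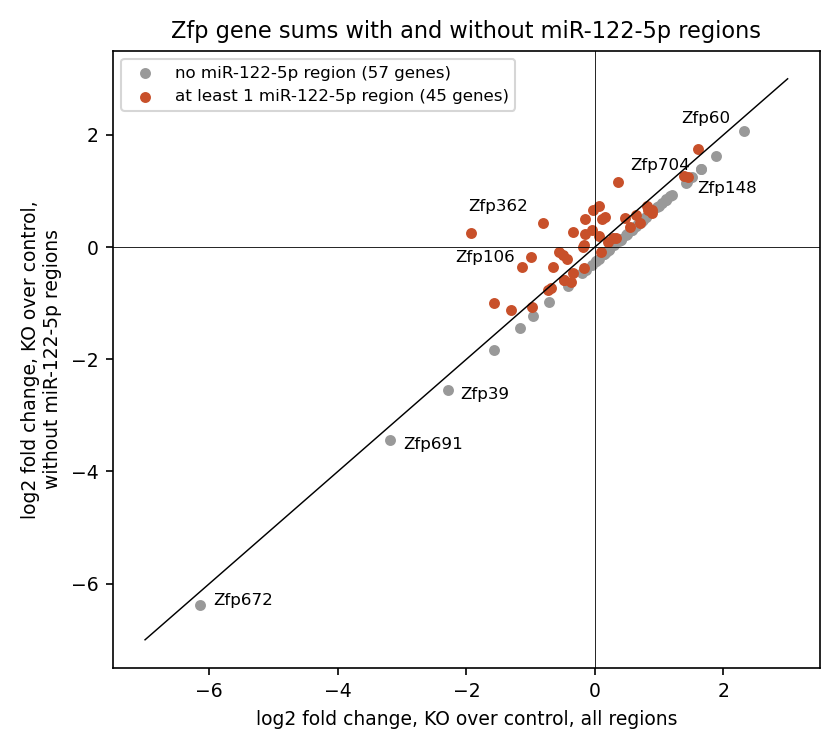
Each point is a Zfp gene tested both ways (102 genes), placed by its log2 fold change, KO over control, over all regions and without miR-122-5p regions, with the line of equality drawn. Genes without such a region (57, grey) lie along a line slightly below it, since each test has its own scaling, and some of the 45 with one (orange) lie above, among them Zfp106 and Zfp704.

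At the level of single regions, most tested Zfp sites for miR-122-5p lost their reads. All 121 tested Zfp regions gave 29 falls and 24 rises, and across all 17182 regions 45.1% passed, 27.6% lower and 17.5% higher. A miR-122-5p match was present in 133 Zfp regions of 88 genes, or 12.8% of Zfp regions against 9.33% of all protein-coding regions. Of these, 20 were tested, 16 fell, none rose and 4 did not pass, with a median log2 change of -3.77. Across all 2637 tested regions with such a match, 91.1% passed, 89.8% lower and 1.29% higher, and the median was -3.74. A region read mostly in controls can enter the test through those reads, so these shares are descriptions. The 4 exceptions in the Zfp genes, named after their values were seen, were 6mer matches in Zfp91, Zfp687 and Zfp865 and a 7mer-A1 match in Zfp282. Among the 15 tested Zfp regions with a 7mer or 8mer match, 14 fell, and 1630 of 1733 did over the whole table. Of the 5 with only a 6mer 2 fell, against 739 of 904 over the whole table. Leaving out control 1, 3 or 4 reduced the number of falls from 16 to 8, since fewer regions then had enough reads, and without KO replicate 4 it was 25.

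**Figure D3:**
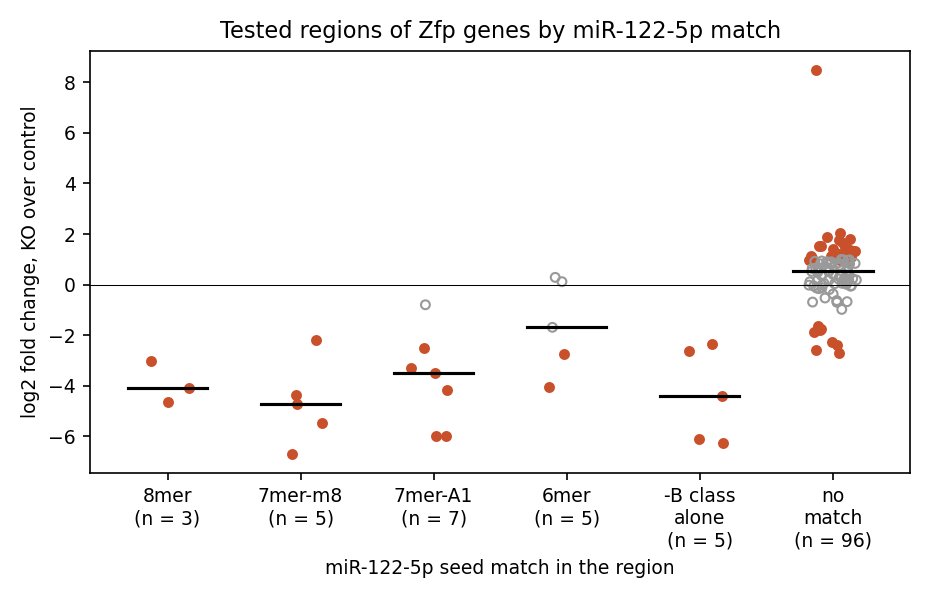
Points are the 121 tested regions of Zfp genes, by the class of their miR-122-5p seed match from longest to shortest, with the log2 fold change, KO over control, on the vertical axis. Filled points passed an adjusted p of 0.05, open points did not and bars are medians, which lie at -4.08 for 8mer, -1.69 for 6mer and 0.54 for regions without any match.

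Zfp106, a zinc finger protein that binds RNA, held the Zfp region with the smallest p. Its 3' UTR region with a 7mer-A1 match (mm10, chr2:120509414-120509483, minus strand) had 158, 72, 305, 390 and 256 reads in controls and 9, 2, 6 and 0 in KO (log2 -5.99, SE 0.46, adjusted p = 4.28e-08). No KO library came near a control. Over the whole gene, with 24 regions, the levels were 304, 260.1, 353, 428 and 408 CPM in controls and 99.4, 102, 95.3 and 122.5 CPM in KO, a fall of 1.92 on the log2 scale (SE 0.20, adjusted p = 1.74e-05). The 4 miR-122-5p regions held 82.0% of its reads in controls and 7.33% in KO. Without them the gene had 66.0 ± 12.4 CPM in controls and 97.6 ± 14.7 CPM in KO, and its log2 change of 0.25 did not pass (SE 0.25, adjusted p = 0.488).

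Some less covered Zfp genes with most of their control reads at such sites fell too. Others did not pass, among them Zfp408 (73.3% of control reads, log2 -0.66, adjusted p = 0.293) and Zfp386 (65.2%, 0.04, 0.953). Both were picked after their values were seen. Zfp426, a KRAB zinc finger gene, had 26, 7, 31, 54 and 31 reads in controls and 0, 1, 1 and 1 in KO at a 7mer-m8 match in its 3' UTR (chr9:20469421-20469547, log2 -5.48). The gene as a whole went from 51.0 ± 14.0 to 11.1 ± 5.52 CPM (log2 -2.40, adjusted p = 0.000425). Zfp169 went from 34.4 ± 12.6 to 7.60 ± 3.86 CPM (log2 -2.43), with 89.7% of its control reads in miR-122-5p regions, among them a 3' UTR 8mer (chr13:48489440-48489509, log2 -4.64). The only region of Zfp213, a 3' UTR 7mer-A1 match at chr17:23556902-23556971, held 29, 4, 61, 62 and 34 reads in controls and 4, 7, 5 and 2 in KO. On the CPM scale its groups did not overlap, with control 2 nearest to KO at 8.97 CPM (log2 -3.32 over the gene, adjusted p = 0.000138). Zfp653, a repressor of steroidogenic factor 1, and Zfp777 went from 31.3 ± 15.4 to 2.39 ± 2.76 CPM and from 23.7 ± 10.8 to 1.86 ± 0.835 CPM (log2 -3.53 and -3.61). Zfp653 had 10 reads in the 4 KO libraries and Zfp777 had 7, so the sizes of these falls rest on few reads.

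Sites in coding sequence and 5' UTRs fell as well. Of 9 tested Zfp coding regions with a miR-122-5p match 7 fell, with a median log2 change of -4.03, and of 10 in 3' UTRs 8 fell, with a median of -3.40. Over the whole table, 1003 of 1072 such coding regions fell, with a median of -3.78. In 3' UTRs 680 of 816 fell, with a median of -3.18. In Zfp26 a coding 7mer-A1 region (chr9:20438403-20438472) held 13, 11, 20, 29 and 21 reads in controls and 0, 0, 1 and 0 in KO (log2 -6.00, SE 0.65). The whole gene had 58.9 ± 4.62 CPM in controls and 62.1 ± 20.6 CPM in KO (log2 -0.03, adjusted p = 0.936), with 45.2% of its control reads in miR-122-5p regions. In Zfp467 a 5' UTR 7mer-m8 region (chr6:48445671-48445740) had 13, 5, 26, 20 and 5 reads in controls and none in KO, at least 18.9-fold lower against a floor of 3 reads over the KO group. Coding matches in Zfp367 and Zfp362 fell by 4.16 and 2.75 on the log2 scale. A 3' UTR 8mer in Zfp46 fell by 4.08. Over their whole genes, Zfp46 (log2 -1.13, adjusted p = 0.00599), Zfp467 (-0.99, 0.0227) and Zfp362 (-0.80, 0.0231) fell, and Zfp367 did not pass (-0.15, 0.643). The call of Zfp362 was lost without KO replicate 1 or 2 or control 4 or 5 (adjusted p = 0.0745, 0.0602, 0.0667 and 0.0521), and that of Zfp467 without KO replicate 1 or 3 or control 4 (0.0777, 0.0537 and 0.113).

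Falls of the same size occurred where only the -B class matched. The sources used here do not define that class. All 5 tested Zfp regions with that match alone fell, with a median of -4.40, as did 538 of 630 such regions in the whole table. A coding region of Zfp710 (chr7:80081887-80081956) had 41, 13, 67, 54 and 37 reads in controls and 0, 1, 1 and 0 in KO. The sole region of Zfp672, in its 5' UTR (chr11:58319879-58319948), had 73, 47, 63, 89 and 21 reads in controls and 2, 1, 0 and 0 in KO. Both were named after their values were seen. Their fitted log2 changes, -6.26 and -6.11, rest on 2 and 3 KO reads.

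Zfp691 and Zfp39 fell although no region of theirs was named for miR-122-5p itself, and 1 of the 2 regions of Zfp691 held a -B match. Zfp691 had 32.4, 60.6, 33.4, 23.1 and 40.3 CPM in controls and 2.98, 3.90, 4.67 and 4.90 CPM in KO, without overlap (log2 -3.18, SE 0.44, adjusted p = 0.000137). Its coding region with a let-7 match and no -B match (chr4:119170589-119170785) fell by 2.71 on the log2 scale (adjusted p = 0.000178). Zfp39 had 1 region, in the 3' UTR, and went from 16.5 ± 6.98 to 3.30 ± 1.31 CPM (log2 -2.29, adjusted p = 0.00248).

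The CCCH genes differed among themselves. Zfp36, which encodes tristetraprolin, was the Zfp gene with the most reads: 378, 756, 547, 644 and 412 CPM in controls and 423, 678, 534 and 444 CPM in KO. The groups overlapped fully (log2 -0.20, SE 0.25, adjusted p = 0.547). Within it, a coding region with matches for miR-122-3p, the other strand of the miR-122 precursor, and miR-193 (chr7:28378129-28378198) had 36, 26, 74, 106 and 42 reads in controls and 22, 35, 26 and 6 in KO, and fell (log2 -1.64, adjusted p = 0.000262). Its largest coding region, just beside it, was at -0.67 (adjusted p = 0.0568), and a 3' UTR region with a miR-27 match rose (log2 0.92, adjusted p = 0.0268).

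Zfp36l1, a decay factor with a role in bile acid regulation, had 228, 451, 310.4, 395 and 260.4 CPM in controls and 573, 431, 672 and 483 CPM in KO. Only KO replicate 2 fell within the control range, below control 2, and the gene passed narrowly (log2 0.65, SE 0.24, adjusted p = 0.0424). Its coding 6mer for miR-122-5p (chr12:80110492-80110561) had 11, 15, 34, 73 and 29 reads in controls and 2, 2, 5 and 1 in KO, while its largest 3' UTR region, with matches for let-7, miR-27 and miR-30, rose (log2 0.96, adjusted p = 0.00600). Zfp36l2, the remaining decay factor, had 53.3 ± 10.4 CPM in controls and 83.0 ± 8.82 CPM in KO (log2 0.55, adjusted p = 0.0495). Scaled on genes without a miR-122-5p match, neither passed (Zfp36l1 log2 0.33, adjusted p = 0.270, and Zfp36l2 0.23, 0.422), and DESeq2 did not call Zfp36l2 (adjusted p = 0.0568). Zfp36l1 also lost its call without KO replicate 1 or 3 or any of controls 1, 3, 4 and 5 (adjusted p = 0.0572 to 0.144). Zfp36l2 also lost it in exonic regions alone (adjusted p = 0.0539), without the filter on low counts (0.0786) and without any of KO replicates 2 to 4 or controls 1, 2, 4 and 5 (adjusted p = 0.0689 to 0.185).

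Of 5 tested Zfp genes listed as developmental factors, 3 rose, against 21.9% of all genes, and the calls of Zfp521 and Zfp462 were lost in exonic regions alone. Zfp148, which binds GC-rich promoters, had 77.5, 74.0, 73.0, 68.4 and 73.8 CPM in controls and 184, 153, 177 and 294 CPM in KO, with no overlap (log2 1.39, SE 0.29, adjusted p = 0.00192). In exonic regions alone its log2 change was 1.14 (adjusted p = 0.00116), and without KO replicate 4 it was 1.06 (adjusted p = 4.00e-05). A 3' UTR region with a miR-30 match (chr16:33501164-33501233) rose by 1.43 on the log2 scale. Zfp521, active in progenitors and neurons, had 9.87, 15.7, 10.6, 9.40 and 8.05 CPM in controls and 24.8, 33.1, 31.8 and 88.2 CPM in KO (log2 1.89, SE 0.54, adjusted p = 0.0127). In exonic regions alone Zfp521 no longer passed (log2 0.40, adjusted p = 0.404), and it also lost its call without control 4 or 5 (adjusted p = 0.0684 and 0.0598). Zfp462, which helps to hold cell identity in development, had 9.87, 0, 6.16, 8.55 and 6.71 CPM in controls and 12.9, 20.5, 20.5 and 39.2 CPM in KO, without overlap (log2 1.45, adjusted p = 0.0425). It did not pass in exonic regions alone (log2 0.96, adjusted p = 0.140), when scaled on genes without a miR-122-5p match (1.14, 0.108), nor without KO replicate 1 or control 3, 4 or 5 (adjusted p = 0.0599 to 0.135). Zfp281 (log2 0.40, adjusted p = 0.262) and Zfp292 (0.01, 0.979) did not pass, and Zfp503 had too few reads.

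Some intronic regions of developmental and brain-expressed Zfp genes held reads in KO alone. Across all genes, 131 of 400 tested intronic regions without a miR-122-5p match rose and 40 fell. In Zfp148 an intronic region without a match for any listed microRNA (chr16:33406531-33406600) had no read in any control and 37, 31, 39 and 80 reads in KO, at least 82.1-fold higher against a floor of 3 reads over the control group. KO replicate 4 was highest, with 131 CPM against 30.2 to 36.8 CPM in the other KO libraries. With no control read, the region entered the test only through its KO reads, so these values are a description. In Zfp521 an intronic region (chr18:13934129-13934198) had no control read and 3, 6, 8 and 15 reads in KO. A further intronic region of Zfp148 (chr16:33479913-33479982), with too few reads to be tested, went the other way, with 13, 4, 10, 3 and 2 reads in controls and none in KO. For Zfp462 an intronic region (chr4:54963116-54963185) had none in controls and 3, 7, 2 and 10 in KO. The brain-expressed genes Zfp536 and Zfp804a had no read in any control and 6.04 ± 3.21 and 3.10 ± 2.44 CPM in KO, at least 8.47-fold and 4.35-fold higher. Zfp365 had 1 read in the 5 controls and 37 in KO, with 32.7 CPM in KO replicate 4 against 3.97 to 7.80 CPM in the other KO libraries. The only region of Zfp804a, intronic, does carry a miR-122-5p match. Zfp423 had 2 reads in controls and 25 in KO. In all, 8 of the 230 genes had no control read and 2 had no KO read, and the same shares over all genes were not computed. Besides Zfp536 and Zfp804a, the genes without a control read were Zfp329, Zfp354c, Zfp438, Zfp788, Zfp831 and Zfp938, which are on no list of roles and were named after their values were seen. None of Zfp536, Zfp804a, Zfp365 and Zfp423 had enough reads to be tested, and Zfp385b, a further brain-expressed member, did not pass (log2 -0.73, adjusted p = 0.119). Zfp385b fell in exonic regions alone (log2 -1.70, adjusted p = 0.00312), when scaled on genes without a miR-122-5p match (-1.04, 0.0327), and without KO replicate 4 (-1.04, 0.00594). KO replicate 4, in which Zfp148, Zfp521, Zfp462, Zfp536, Zfp804a, Zfp365, Zfp423 and Zfp385b reached their highest CPM among KO libraries, also had the highest neuron marker sum (8995 CPM), and the part of that difference in these values was not tested.

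Further Zfp genes rose that were on no list of roles. Zfp60, a KRAB gene, had 7.05, 8.97, 3.52, 1.71 and 4.03 CPM in controls and 16.9, 13.6, 33.6 and 32.7 CPM in KO (log2 2.32, SE 0.57, adjusted p = 0.00559). Zfp618 (6.96 ± 3.06 to 28.2 ± 6.23 CPM, log2 1.66), Zfp532 (15.5 ± 6.23 to 52.6 ± 8.86 CPM, log2 1.65) and Zfp512 (9.42 ± 3.36 to 29.1 ± 8.19 CPM, log2 1.60) rose without overlap. Zfp664 rose from 23.2 ± 9.70 to 70.3 ± 12.7 CPM (log2 1.43), also without overlap. Zfp322a rose by 1.51 on the log2 scale, with KO replicate 4 at 26.1 CPM below control 2 at 31.4 CPM. Zfp217, a transcriptional repressor of the CoREST complex, rose from 61.9 ± 20.9 to 149.8 ± 33.0 CPM (log2 1.17, adjusted p = 0.00134), and its coding region with a let-7 match (chr2:170116157-170116226) rose with it (log2 1.34). Zfp516, a driver of brown fat genes, and Zfp644 rose by 0.89 and 0.90 (adjusted p = 0.00107 and 0.00372).

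No gene listed for liver or hormone response passed as a whole. Zfp704 had 52.1, 60.6, 53.6, 65.8 and 56.4 CPM in controls and 66.6, 74.1, 110.2 and 86.5 CPM in KO. KO lay above controls, yet the log2 change of 0.36 did not pass (SE 0.21, adjusted p = 0.175). Its 4 miR-122-5p regions held 56.6% of control reads and 8.60% of KO reads, and outside them it rose from 23.9 ± 7.58 to 77.0 ± 18.7 CPM (log2 1.16, SE 0.25, adjusted p = 0.00385). Zfp260 had 20.9 ± 4.30 and 34.3 ± 2.42 CPM and did not pass (log2 0.70, adjusted p = 0.0605), but rose without control 2 (adjusted p = 0.0442), with upper quartile factors (0.0334) and without the sex term (0.0430). Zfp703 had too few reads. Zfp57, Zfp932, Zfp125, Zfp692 and Zfp42, also on the list of roles, had no region in the table.

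None of the tested KRAB genes listed for imprints and retroelements passed. Zfp445 had 32.0 ± 5.38 CPM in controls and 39.1 ± 6.24 CPM in KO (log2 0.17, adjusted p = 0.617). Zfp809 (log2 -0.04, adjusted p = 0.947) and Zfp708 (0.86, 0.294) did not pass, though Zfp708 rose without KO replicate 1 (1.95, 0.0302). Neither did Zfp568, a KRAB gene (262 ± 59.7 and 325 ± 88.2 CPM, log2 0.20, adjusted p = 0.425). Of 30 listed partners of KRAB proteins, 22 were tested and 17 did not pass, with a median of 0.12 over the 22. Among those that passed, Hdac2 and Rbbp4 fell (log2 -2.07 and -1.90), and Morc3 and Smarcad1 rose (1.00 and 1.12). Trim28 itself had 32.5 ± 5.09 CPM in controls and 52.3 ± 17.9 CPM in KO (log2 0.61, adjusted p = 0.0592). Hdac2 was at 0.10 once its miR-122-5p regions were left out and no longer passed.

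Of the Zfp genes listed for roles outside transcription, Zfp91 and Zfp706 were, like Zfp106, among the 10 with the most reads. Zfp91, a ubiquitin ligase, had 139 ± 24.7 and 196 ± 60.6 CPM (log2 0.47, adjusted p = 0.0549), and rose without KO replicate 4 (0.54, 0.0193) or with upper quartile factors (0.56, 0.0489). A 6mer region in its 3' UTR (chr19:12769364-12769433) did not pass (log2 0.29, adjusted p = 0.390), with 52, 48, 133, 113 and 45 in controls and 149, 126, 102 and 35 in KO, while a region with a miR-21 match nearby rose (log2 1.88, adjusted p = 0.00156). Zfp706 had 157 ± 20.2 and 216 ± 34.2 CPM (log2 0.38, adjusted p = 0.126). In it a coding region with a miR-17 match fell by 1.80 on the log2 scale and a 3' UTR region with a miR-24 match rose by 1.20. Zfp652, with 24 regions, did not pass (log2 0.33, adjusted p = 0.118). Zfp598, a sensor of collided ribosomes (log2 0.06), Zfp622, a ribosome maturation factor (0.14), and Zfp207, a spindle protein (0.07), did not pass either.

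Among regions without a miR-122-5p match, 3' UTRs held most of the rises. All 101 tested gave 13 falls and 24 rises, and over all 14545 such regions 36.8% passed, 16.3% lower and 20.4% higher. Upper quartile factors gave 13 and 40, and without control 3 or 4 the falls were 6, and without control 5 the rises 11. Of 62 tested Zfp 3' UTR regions without such a match, 20 rose and 7 fell, with a median of 0.66. Over all 5999 such 3' UTR regions, 1818 rose and 597 fell, with a median of 0.50. Of 29 tested Zfp coding regions without such a match, 2 rose and 5 fell, with a median of 0.35. Over all 5487 such coding regions, 505 rose and 1287 fell, with a median of -0.10. Coding regions with or without a match gave 12 falls and 2 rises of 38, and 42.7% of all coding regions passed, 34.9% lower and 7.78% higher. Summed by gene and scaled within each class, 3' UTR reads gave 18 lower and 9 higher of 71 genes tested, and coding reads 12 lower and 17 higher of 52. Across all genes, 40.4% of 3' UTR sums passed (20.7% lower, 19.6% higher) and 46.8% of coding sums (25.4% lower, 21.5% higher). The split turns with the scaling: with the factors of the whole genes, 3' UTR sums gave 14 lower and 20 higher, and coding sums 18 lower and 9 higher. Those factors moved the median of all genes from 0.07 to 0.41 for 3' UTR sums and from 0.09 to -0.22 for coding sums. Upper quartile factors gave 16 lower and 13 higher for 3' UTR sums and 9 lower and 20 higher for coding sums. Without control 4, 3' UTR sums gave 8 lower and 5 higher and coding sums 5 lower. Without KO replicate 1 they gave 11 and 5, and coding sums 11 higher, and without control 3 the falls were 11 and 6.

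miR-23 had the highest ratio of match frequency in Zfp over other coding regions among the families. Of 410 Zfp coding regions, 68 in 48 genes held a miR-23 match, 16.6%, against 3.72% of 33221 coding regions of other protein-coding genes, a ratio of 4.46. Among other zinc finger gene names a match was present in 2 of 64 coding regions for Zbtb, 2 of 20 for Zkscan and Zscan, 4 of 65 for Klf and Sp, and 4 of 96 for Zc3h and Zcchc. In Zfp 3' UTRs the shares were 8.42% and 5.05%. let-7 (10.6% against 6.32%) and miR-21 (5.40% against 3.20%) had like ratios in 3' UTRs. miR-15/16 and miR-29 matches were scarcer in Zfp coding regions than elsewhere, at 7.07% against 11.5% and 2.93% against 6.07%. Regions of 1 gene share sequence, so these shares are descriptions.

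**Figure D4:**
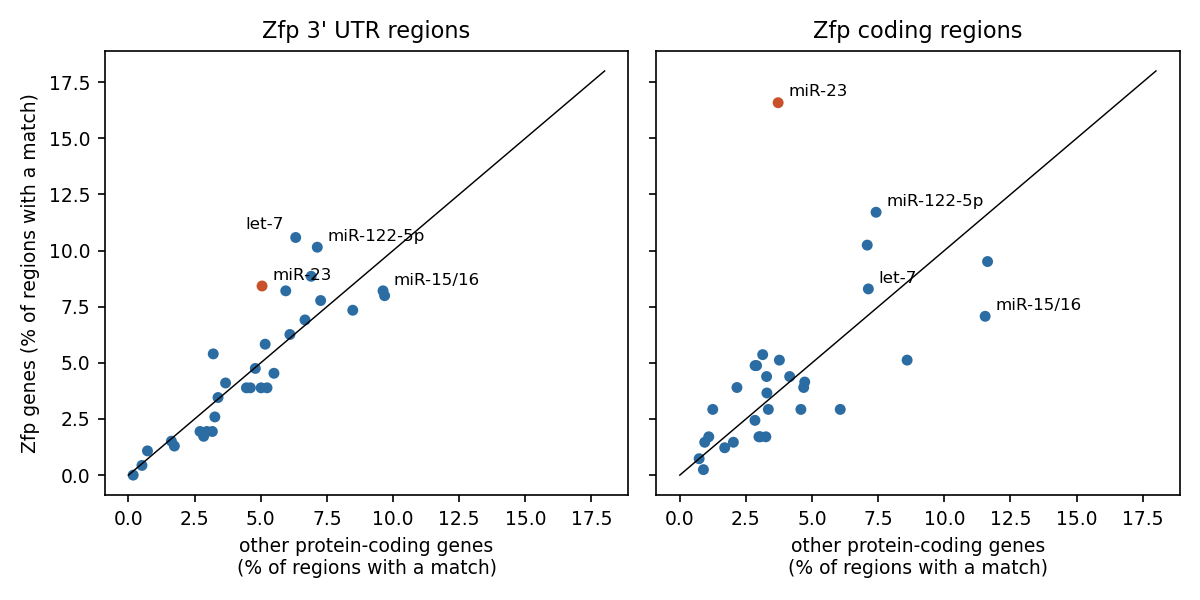
Each point is a microRNA family, placed by the percent of regions with its seed match in other protein-coding genes (horizontal) and in Zfp genes (vertical), for 3' UTR regions on the left and coding regions on the right, with the line of equality. miR-23 (orange) stands at 16.6% against 3.72% in coding regions and at 8.42% against 5.05% in 3' UTRs.

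The miR-23 matches of Zfp coding sequence were longer, less conserved and regularly spaced. Of 80 matches, 38.8% were 8mers and 42.5% 7mer-m8, that is, pairing with the whole AAUGUGA run shown above, while among 1252 coding matches of other genes the shares were 15.5% and 21.4%. Their median conservation score (phyloP, positive where a base changes slowly in evolution) was 0.337, against 1.53 in other genes. For all other families the medians were 1.22 and 1.51. Of the 48 genes, 21 had at least 2 such matches, and Zfp273 and Zfp808 were among those with 4 each. A C2H2 finger with its linker is encoded by 84 bases. Of 30 neighbouring miR-23 matches within 1000 bases in Zfp genes, 17 in 11 genes lay an exact multiple of 84 bases apart, 4 at 84 bases and 5 at 168, and 9 lay 9 bases apart. Among other protein-coding genes 2 of 40 such pairs were at a multiple of 84. For the other families, 5 of 60 pairs in Zfp genes and 20 of 3403 in other genes were.

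**Figure D5:**
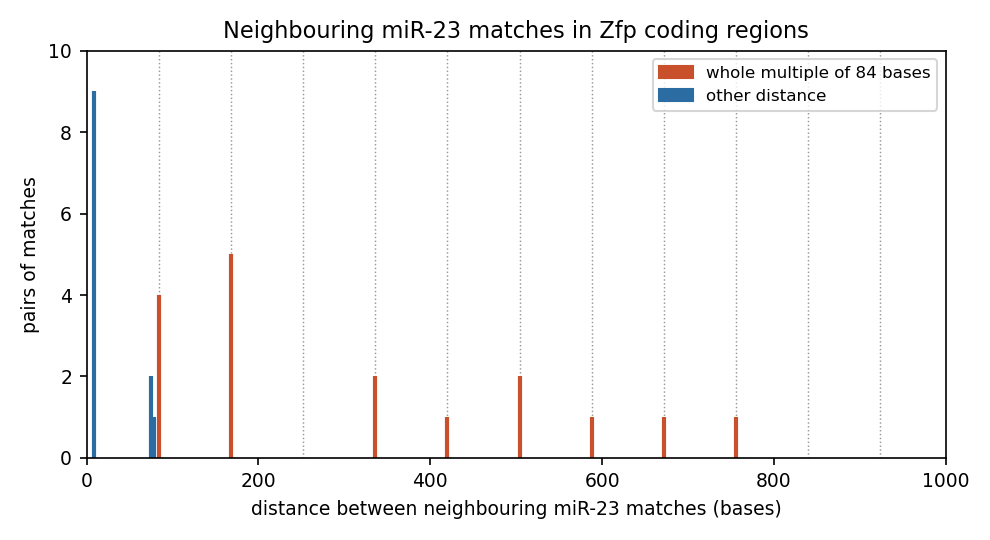
Bars count the 30 pairs of neighbouring miR-23 matches in the bound coding regions of Zfp genes by the distance between them in bases, with dotted lines at multiples of 84 bases. The 17 pairs at such a multiple are orange, and the tallest bar, 9 pairs, is at 9 bases; bars for 4 pairs at 75 to 78 bases overlap.

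These miR-23 regions were thinly covered. Their reads summed to 165, 193, 147, 192 and 132 CPM in controls and 252, 309.9, 356 and 193 CPM in KO, where KO replicate 4 lay just below control 2. As a share of Zfp coding reads outside miR-122-5p regions they held 9.68% ± 1.20 in controls and 14.3% ± 1.68 in KO, without overlap. The same share over all protein-coding genes was 3.66% ± 0.251 and 4.12% ± 0.218, with overlap. Only 1 of the 68 regions had enough reads to be tested, and it did not pass (log2 -0.19), so no change could be detected at single miR-23 sites at this depth. Where paralogs carry near-identical finger sequence, reads may be assigned to the wrong gene, and the sources used here do not say how reads that map to several places were handled.

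Clustered and lone Zfp genes were set side by side. By RefSeq, 113 of the 230 genes had another Zfp, Zkscan or Zscan gene within 100000 bases, and chromosome 7 held the most Zfp genes, 44. Of the clustered genes 47 were tested, with 9 lower, 5 higher and a median log2 change of 0.10. Of the 117 others 75 were tested, with 13 lower, 18 higher and a median of 0.16. The difference between these splits was not tested.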

How the data were processed

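Read counts per region and library were used as deposited; their whole-number values and unequal totals are those of raw counts. Per the submitters' processing notes, Bowtie2 and mm10 were used; the sources used here do not give versions, the peak caller, or how duplicates and reads were counted. Of 143524 rows, 92645 unique regions were kept once each, and 11.0% of reads lay in regions without a gene. The deposited annotation, seed matches and phyloP score were used, and the deposited log2 fold change of the authors was not.

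Counts were summed per gene over all regions, without miR-122-5p regions, over 3' UTR and over coding regions. Each table was tested whole with edgeR 4.0.16 (R 4.3.3): TMM factors, the filterByExpr filter, and a quasi-likelihood fit with terms for genotype and sex, Benjamini-Hochberg at 0.05. Every adjusted p is from that test unless DESeq2 is named. SE was derived from its statistic. CPM are counts per 1000000 of the library total; "±" is the SD over 5 controls or 4 KO. Log2 fold changes are KO over control on TMM scaling. A floor of 3 counts is 2.56 to 6.73 CPM in 1 library; floors cover counting error only. Replicates are separate mice per the labels, and every pair within a group differed by more than sampling noise (chi-square over its degrees of freedom at least 3.42). Regions were matched to RefSeq genes (GRCm38.p6): all 230 names matched, 4 as synonyms, and 98.8% of regions lay within 1 kb of the gene, but 93 also lay within another gene's span. Strand and paralog handling are unknown.

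The members and lists were chosen with earlier results of these data known. Genes were named by rule: the 8 largest rises and falls past the threshold with at least 1 CPM in both groups, the 10 with most reads, the 10 with the smallest p at a miR-122-5p region, the 5 with most regions, the 5 coding regions with most reads, and a list of 31 with known roles. The tests were tried on simulated counts with known changes. Each size of change was planted in 50 rows, leaving 8643 of 8843 gene sums unchanged, whereas 45.2% of gene sums passed in the real data. A true log2 change of -1 was found in 40% of gene sums and 6% of regions, and of 1 in 44% and 20%. A change of -2 was found in 86% of gene sums and 46% of regions, and of 2 in 100% and 94%. These rates hold for that setting and are not the power of the tests above. A value that did not pass may still hide a change, and in the simulation falls were found less often than rises. Alternatives were DESeq2 1.42.0, other scaling, no filter, no sex term, a replicate block, exonic regions alone, other definitions of a miR-122-5p region and each library left out. Python 3.11.15, pandas 2.3.3, numpy 2.4.6 and matplotlib 3.10.9 were used. Some single genes are not reported here.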

Additional observations from a re-analysis of the deposited data

Results flagged for a closer look

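Gaps within a group singled out 9 of 112 sets of replicate values examined, and chance alone gives about 1 in 20. KO replicate 4 stood apart 3 times. It was highest for Zfp365, at 32.7 CPM against 3.97 to 7.80 CPM in the other KO libraries, and for Zfp521, at 88.2 against 24.8 to 33.1 CPM. It was lowest for Zfp598, at 13.1 against 34.6 to 38.8 CPM. Control 4 held the only control read of Zfp365, 0.855 CPM. Control 2, the smallest library, was lowest for Zfp213, at 8.97 against 40.9 to 53.6 CPM, and highest for Zfp703, at 20.2 against 5.98 to 7.92 CPM. Control 3 was highest for Zfp36l2 (71.2 CPM, others 45.6 to 53.0), control 1 for Zfp708 (15.5 CPM, others 2.68 to 6.16), and KO replicate 1 lowest for Zfp618 (18.9 CPM, others 31.0 to 31.8).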

How the results depend on the processing

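Calls for single genes depended on depth, scaling and the libraries used. With all regions, 22 Zfp genes were lower and 23 higher, and leaving out a library in turn gave 14 to 26 and 14 to 28. Without miR-122-5p regions (9 and 15) the ranges were 6 to 11 and 7 to 18. For 3' UTR sums (18 and 9) they were 8 to 20 and 5 to 12, and for coding sums (12 and 17) 5 to 12 and 11 to 18. For regions with a miR-122-5p match (16 lower) the range was 8 to 25, and for those without (13 and 24) 6 to 18 and 11 to 35. Scaling on genes without a miR-122-5p match gave 14 higher. The factors of the whole genes gave 20 higher for 3' UTR sums and 9 for coding sums, and upper quartile factors gave 40 higher regions without a match. With no filter on low counts, 23 genes were higher without miR-122-5p regions, 75 regions with a match were lower and 1 higher, and of those without 33 were lower and 84 higher. Leaving out the -B class too, an alternative chosen after seeing the data, gave 5 lower. DESeq2 gave 21 lower and 20 higher.

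Same-numbered controls and KO mice did not deviate together (correlations of -0.08 to 0.002). So few pairs cannot show whether litter or handling pairs the mice, and the labels state no pairing. With a replicate block and sex, which fits 5 blocks to 9 libraries, gene sums gave 14 lower and 11 higher, sums without miR-122-5p regions 5 and 5, and regions without a match 7 and 7. The block turned the sign of Zfp367 (0.13), Zfp568 (-0.20), Zfp598 (-0.45), Zfp622 (-0.27) and Zfp708 (-0.41), and without sex that of Zfp292 (-0.25), Zfp367 (0.0093), Zfp598 (-0.12) and Zfp809 (0.30).

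No value that passed its test with all regions turned sign as a gene sum. Other turns were of gene sums with an adjusted p of 0.294 or more. Scaling on genes without a match gave Zfp185 -0.12, Zfp207 -0.24, Zfp292 -0.30, Zfp445 -0.14, Zfp568 -0.12, Zfp598 -0.26, Zfp622 -0.18 and Zfp791 -0.092. Exonic regions alone gave Zfp292 -0.12, Zfp445 -0.038 and Zfp809 0.60. No filter gave Zfp292 -0.018. No sex term gave Zfp26 0.0019, Zfp292 -0.11, Zfp598 -0.056 and Zfp809 0.10. DESeq2 gave Zfp26 0.0071, and upper quartile factors Zfp26 0.060 and Zfp809 0.056. Leaving out only 7mer and 8mer regions gave Zfp106 -0.0036 and Zfp362 -0.84 without those regions. Over single libraries left out, Zfp207 ran from -0.31 to 0.32, Zfp26 from -0.16 to 0.13, Zfp292 from -0.21 to 0.28, Zfp598 from -0.057 to 0.15, Zfp622 from -0.017 to 0.22, Zfp809 from -0.30 to 0.23 and Zfp467 without miR-122-5p regions from -0.30 to 0.048. The causes were not tested.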
